A study of Mus musculus with 12 samples.

Results

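Blood transcripts of mice that learned a cued task were compared with those of partners that met the same cues and did not, by asking for each gene whether its change over the training period differed between the arms. The value reported for each gene is the interaction of training and time, that is, post minus pre in trained mice minus post minus pre in untrained mice, on the log2 scale. A positive interaction means that the level moved further up, or less far down, over the period in trained than in untrained mice. Of 27381 features, 1 passed the threshold for this interaction (limma, adjusted p under 0.05, 0.00365% of features). A wider set of 967 genes (3.53%) combined a limma p under 0.05, before adjustment, with an interaction that was alike in both batches, meaning of the same sign with the smaller of the 2 batch values at least 0.5 of the larger. These 967 genes are described here.

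The animals were C57B16/J mice as the labels spell it (C57Bl6/J in the study). They were operated on at 8 to 12 weeks of age for head fixation and then restricted in water. Trained mice ran on an air-cushioned ball and were rewarded with water for the direction that a visual cue called for, and untrained (control) mice were handled alike but received water at random. Each of the 4 groups (trained post, trained pre, untrained post and untrained pre) had 3 arrays, each of 1 pool of blood RNA from 7 mice with globin transcripts depleted, with replicates 1 and 2 in batch 1 and replicate 3 in batch 2, a repeat of the experiment. Pre blood was taken from a sinus at surgery and post blood from the trunk at death in both arms, so age, site of collection and water restriction changed with time in trained and untrained mice alike. By the study, trained and untrained mice were paired as same-sex littermates, and blood of both was taken before and after the period. Which mice entered which pool is not given, and the main fit treats the pools as unpaired. The labels name fewer mice than separate pools in every group would need, and the p-values therefore measure the spread between these pools.

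Blood carries messages from several kinds of cell at once. B cells, T cells, natural killer cells, monocytes and neutrophils supply the immune transcripts, while platelets and young red cells carry RNA left from their marrow precursors. A level in whole blood can differ because a cell type is more or less numerous or because each cell holds more or less of the message, and in pooled blood fewer cells of a type and less RNA per cell cannot be told apart.

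Array medians lay between 1.436 and 1.519, and features had a median level of 1.471. Markers of blood cells were well above that median in all 12 arrays, with Alas2, which starts heme synthesis, at a mean of 12.43, the platelet chemokine Pf4 at 8.12 and the B cell receptor component Cd79a at 7.62. The pan-leukocyte gene Ptprc was lower after the period over both arms (-0.97, limma adjusted p = 0.0359). One pool stood apart in skeletal muscle genes: the fast myosin Myh4 read 5.30 in untrained pre replicate 1 and 0.92 to 2.14 in the other 11 pools. Without that pool 918 genes met the same rule of p and batches, and 620 of them were among the 967. Skin and airway epithelium genes stood highest in trained post replicate 2 and untrained post replicate 1, where the mean deviation of the list was 1.11 and 1.16, against -0.62 to 0.36 in the other pools. The part that these pools' tissue genes play in the values below was not tested.

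The one feature past the threshold was Gm22576, annotated as a gene of small nuclear RNA, a class of short non-coding RNAs of the nucleus that includes the RNAs of the spliceosome. It read 1.93, 2.05 and 2.30 in the trained post pools and 3.44, 3.55 and 3.64 in the trained pre pools (replicates 1, 2 and 3). In untrained mice it read 3.03, 3.10 and 2.57 in the post pools and 2.33, 2.46 and 2.38 in the pre pools. Post minus pre was -1.45 ± 0.16 (SE) in trained and 0.51 ± 0.16 in untrained mice, and within each arm the post and pre pools did not overlap. The interaction was -1.96 ± 0.22 (limma adjusted p = 0.0317), with -2.18 in batch 1 and -1.54 in batch 2. The arms were apart at both times, by -0.81 after the period and by 1.16 before it (trained minus untrained). Leaving out trained post replicate 3 or untrained post replicate 3 kept Gm22576 past the threshold, and leaving out any of the other 10 arrays lost it, at interactions of -2.18 to -1.86 over the 12 fits. Small nuclear RNA genes occur in many similar copies, 650 of which have a feature on the array, and which copies its probes read was not tested.

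**Figure D1:**
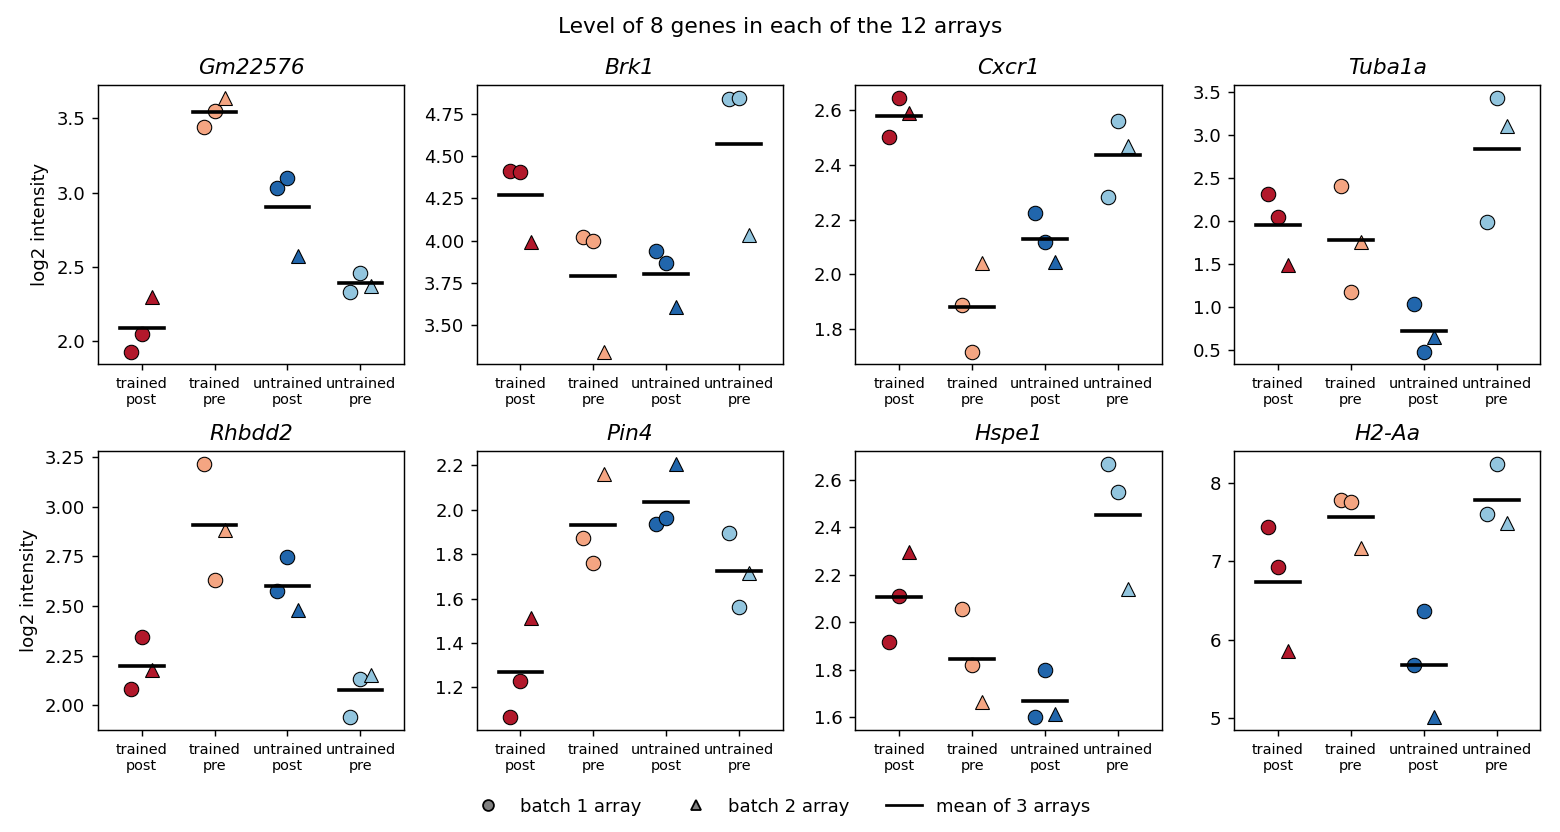
Level (log2 intensity, vertical axis, a range of its own in each panel) of 8 genes in each of the 12 arrays, by group along the horizontal axis, with circles for batch 1, triangles for batch 2 and a bar at the mean of 3 arrays. Gm22576, Cxcr1, Rhbdd2 and Pin4 are the panels in which post and pre pools are apart in both arms, with opposite directions.

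At an unadjusted p under 0.05 there were 1552 features (5.67%), where 5% of all features would be 1369. Of these, 766 were positive (2.8%) and 786 negative (2.87%). Among the 1552, 1504 had the same sign in both batches, 967 were alike in both and 585 were not. Since the pooled interaction is made of both batch values, a gene with a small p tends to have 2 values of one sign, and this share only describes the choice. Over all features at any p, 14040 (51.3%) had the same sign in both batches and 5718 (20.9%) were alike.

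The batches share no array, which allowed the genes of one to be read in the other. In batch 1 alone, 0 features passed the adjusted threshold (limma, smallest adjusted p = 0.0705) and 1520 had an unadjusted p under 0.05. Of these 1520 genes, 766 (50.4%) had the same sign in batch 2, against 51.3% of all features. At an unadjusted p under 0.01 in batch 1 the share was 186 of 343 (54.2%), and among features at or above the median level it was 522 of 1065 (49%), against 51.5% of such features. Across features the interaction in batch 1 and that in batch 2 had a Pearson r of 0.0245 and a Spearman rho of 0.0268, a description over genes that share arrays and are not independent. The share of signs kept was thus close to that of all features.

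**Figure D2:**
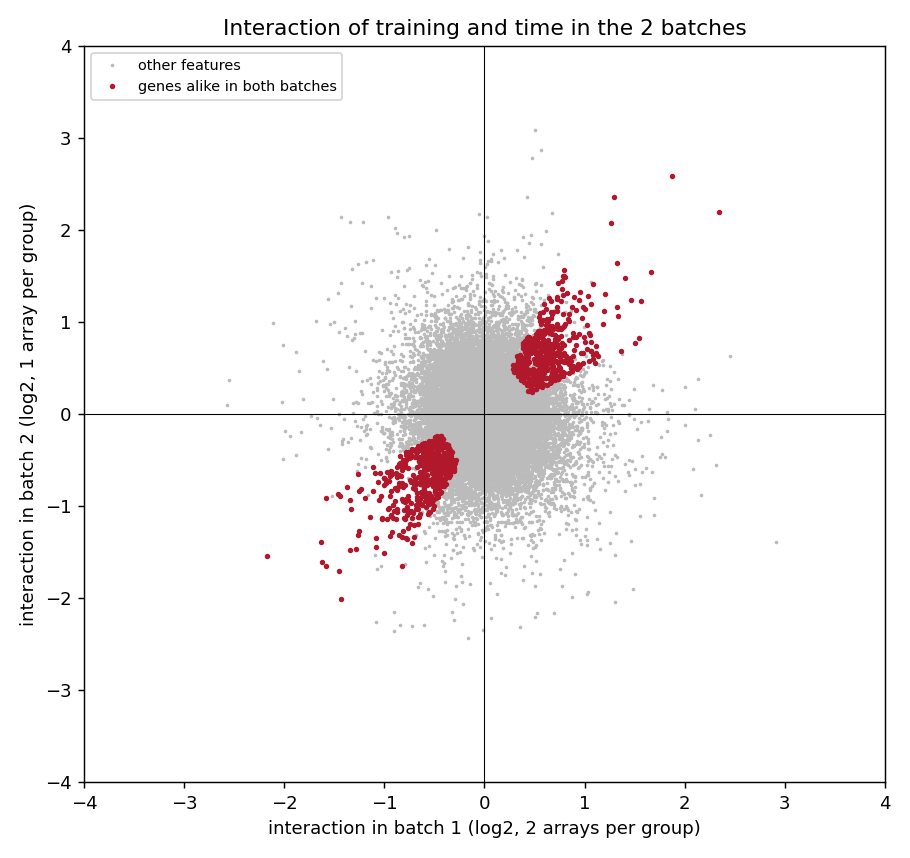
Interaction of training and time in batch 1 (horizontal axis, log2, 2 arrays per group) and in batch 2 (vertical axis, log2, 1 array per group) for all 27381 features. Grey points are the other features and red points the 967 genes, alike in both batches at an unadjusted limma p under 0.05. The red points lie in 2 quadrants because the rule requires the same sign, while the grey cloud shows no slope (Pearson r of 0.0245 over all features).

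Of the 967 genes, 466 had a positive and 501 a negative interaction (1.7% and 1.83% of features). The median size was 0.594 (0.348 to 2.29), against 0.165 over all features, and the median SE of an interaction was 0.221. At the edge of the rule, the unadjusted limma value was 0.04995 for Gm31872, just inside, and 0.05009 for D11Wsu47e, just outside. Abca13 had batch values of -0.31 and -0.62, just inside the 0.5 that the rule asks for, and Gm5963 had 1.03 and 0.52, just outside it.

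Positive and negative genes differed in where they stood on the scale of expression. Of the 593 genes at or above the median level, 358 were positive and 235 negative, and of the 374 below it 108 were positive and 266 negative. With features cut by mean level into 5 equal classes, the highest class held 210 positive and 56 negative genes, and the lowest 34 positive and 76 negative. All features showed a shift of the same kind: the median interaction was 0.13 in the highest class (0.15 in batch 1 and 0.069 in batch 2) and -0.023 in the lowest. By annotated type, 699 of the 967 were protein coding (372 positive), 89 long non-coding RNAs (20 positive), 38 small nucleolar RNAs (11 positive), 25 microRNAs (6 positive), 23 small nuclear RNAs (5 positive) and 17 variable segments of antigen receptors (10 positive). These were 3.45% of protein-coding, 2.75% of long non-coding, 4.27% of small nucleolar, 4.71% of microRNA, 3.54% of small nuclear and 6.44% of variable-segment features.

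An interaction can arise in several ways, and the arms were therefore read one by one. In 839 of the 967 genes (86.8%) the 2 arms had changes of opposite sign, against 41.4% of all features. Of the positive genes, 392 were higher after the period in trained and lower in untrained mice, 51 were lower in both and 23 higher in both. Of the negative genes, 447 were lower after the period in trained and higher in untrained mice, 34 were lower in both and 20 higher in both. Post and pre pools did not overlap in either arm, with opposite directions, in 128 genes (13.2%), against 0.657% of all features. The interaction values chose these genes, so the shares describe them only.

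**Figure D3:**
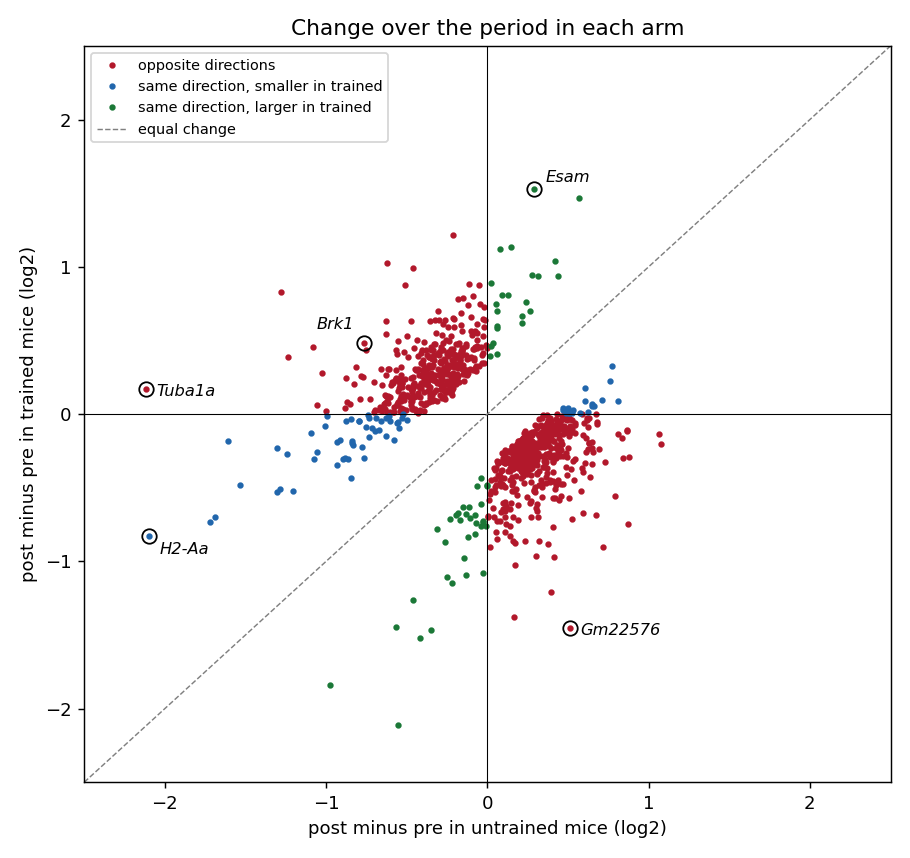
Post minus pre in untrained mice (horizontal axis, log2) and in trained mice (vertical axis, log2) for the 967 genes, coloured by whether the arms moved in opposite directions (839 genes), in the same direction with the smaller change in trained mice (71) or with the larger change in trained mice (57). The dashed line marks equal change, and 5 named genes are circled.

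The interaction is also the difference between the arms after the period minus that before it. Trained minus untrained had opposite signs at the 2 times in 915 of the 967 genes (94.6%), against 51% of all features. A large interaction, by which these genes were chosen, favours opposite signs, so this share too describes the choice only. In 426 genes (44.1%) the difference before the period was larger in size than that after it, against 46.1% of all features. For Brk1 the arms differed by 0.46 after the period and by -0.78 before it (trained minus untrained). Slc39a4 was the clearest case of the other kind, with a difference of 0.78 after the period and of -0.015 before it.

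**Figure D4:**
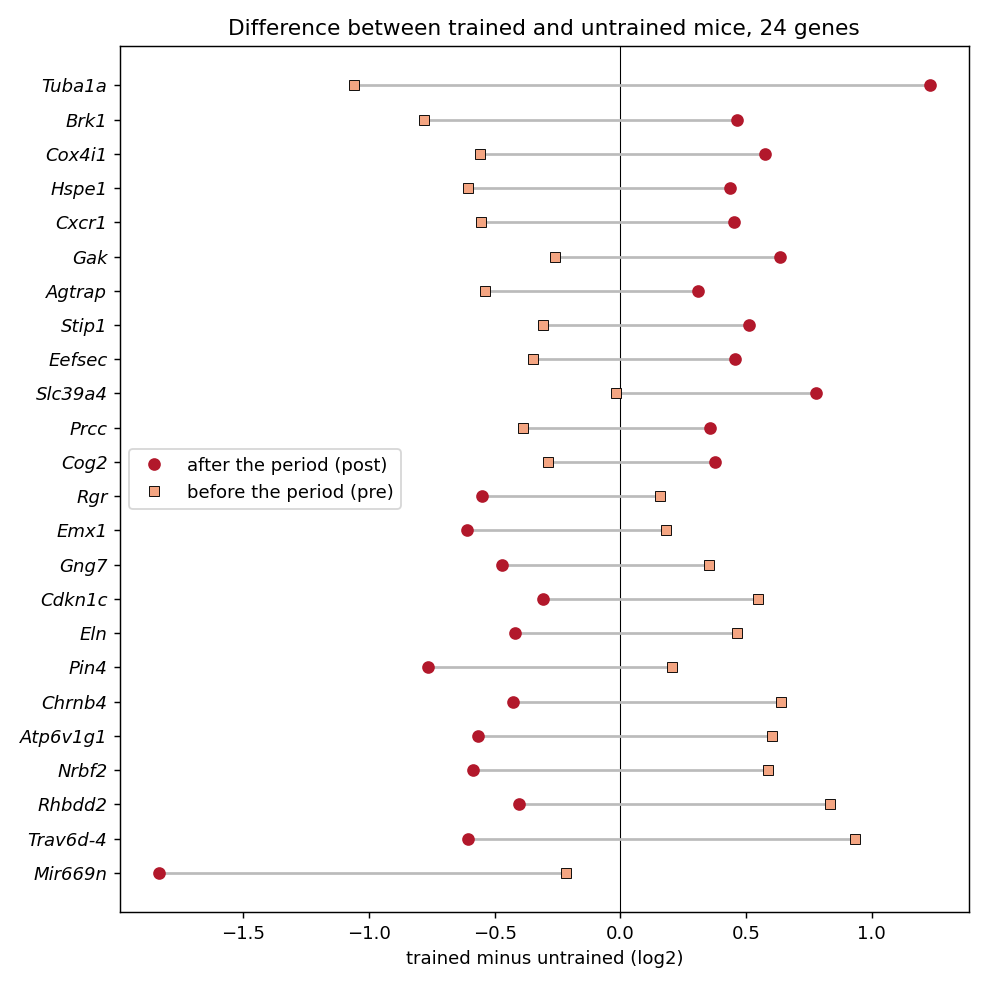
Trained minus untrained (horizontal axis, log2) after the period (red circles) and before it (orange squares) for the 12 positive and 12 negative protein-coding genes and other named transcripts at or above the median level with the smallest p, ordered by interaction. The circle and the square lie on opposite sides of 0 in 23 of the 24, Mir669n being the exception, and the square of Slc39a4 lies at -0.015. The genes were chosen by their interaction, which is the gap between circle and square, so this count describes the choice.

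Among positive genes with a proper symbol (not a predicted Gm gene or the like) at or above the median level, the 12 with the smallest p were Brk1, Cxcr1, Cox4i1, Agtrap, Gak, Hspe1, Cog2, Tuba1a, Prcc, Slc39a4, Stip1 and Eefsec. None passed the threshold, with limma adjusted p from 0.21 for Brk1 to 0.775. Brk1, a small subunit of the WAVE complex that starts branched actin filaments, read 4.41, 4.41 and 3.99 in the trained post pools, 4.02, 3.997 and 3.34 in the trained pre pools, 3.94, 3.87 and 3.61 in the untrained post pools and 4.84, 4.85 and 4.03 in the untrained pre pools. Batch 2 read lower than batch 1 in every group, the untrained pre pools were the highest of their batch, and the untrained pools were apart while the trained ones overlapped. Its interaction was 1.25 ± 0.18 (1.34 in batch 1 and 1.07 in batch 2), from 0.48 in trained and -0.77 in untrained mice.

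Cxcr1, a chemokine receptor of neutrophils, read 2.50, 2.65 and 2.59 in the trained post pools, 1.89, 1.72 and 2.04 in the trained pre pools, 2.22, 2.12 and 2.05 in the untrained post pools and 2.28, 2.56 and 2.47 in the untrained pre pools. The post pools lay above all pre pools in trained mice and below all pre pools in untrained mice, and the interaction was 1.00 ± 0.18 (1.02 in batch 1 and 0.97 in batch 2). Cox4i1, a subunit of cytochrome c oxidase at the end of the respiratory chain, read 4.16, 4.47 and 3.84 in the trained post pools, 3.65, 4.05 and 3.81 in the trained pre pools, 3.58 in each of the untrained post pools and 4.33, 4.62 and 4.23 in the untrained pre pools. Here the pools of untrained mice were apart and those of trained mice overlapped (interaction 1.14 ± 0.22, 1.36 in batch 1 and 0.68 in batch 2). Tuba1a, an alpha-tubulin of the microtubules, had the largest interaction of the 967 genes, 2.29 ± 0.53 (2.34 in batch 1 and 2.20 in batch 2). It read 2.31, 2.05 and 1.49 in the trained post pools, 2.41, 1.18 and 1.75 in the trained pre pools, 1.03, 0.48 and 0.65 in the untrained post pools and 1.98, 3.43 and 3.11 in the untrained pre pools. Nearly all of it came from the untrained arm (0.17 in trained and -2.12 in untrained mice), and its SE was the largest among these 12 positive genes and the 12 negative ones described below.

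A pair of the 12 are chaperones of protein folding. Hspe1, the mitochondrial cochaperonin, read 1.92, 2.11 and 2.30 in the trained post pools, 2.06, 1.82 and 1.66 in the trained pre pools, 1.60, 1.80 and 1.61 in the untrained post pools and 2.67, 2.55 and 2.14 in the untrained pre pools (interaction 1.04 ± 0.22, 0.99 in batch 1 and 1.16 in batch 2). Stip1, a cochaperone that passes clients between heat shock chaperones, read 3.66, 4.04 and 3.46 in the trained post pools, 3.20, 3.32 and 3.03 in the trained pre pools, 3.50, 3.25 and 2.88 in the untrained post pools and 3.62, 3.47 and 3.39 in the untrained pre pools (interaction 0.82 ± 0.20). For Hspe1 only the untrained pools were apart, and for Stip1 only the trained ones. The heat shock factor binds inverted repeats of GAA, so the promoters of this pair are shown, in 150 bases before the start site from RefSeq on GRCm38.p6, 5′ to 3′ on the gene's own strand, with matches to GAANNTTC or TTCNNGAA in capitals (both strands, since each motif is its own reverse complement).
Hspe1, chr1:55087998-55088147, plus strand: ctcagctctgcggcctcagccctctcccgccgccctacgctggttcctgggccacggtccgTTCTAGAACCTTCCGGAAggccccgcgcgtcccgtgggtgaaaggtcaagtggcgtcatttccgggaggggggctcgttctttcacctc
Stip1, chr19:7040027-7040176, minus strand: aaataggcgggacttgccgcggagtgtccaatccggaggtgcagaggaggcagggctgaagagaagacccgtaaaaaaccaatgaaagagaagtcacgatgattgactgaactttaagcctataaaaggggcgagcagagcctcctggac
The Hspe1 window held 3 overlapping matches, beginning 89, 84 and 79 bases before the start site, and the Stip1 window held 0. Of 32851 windows of this length, 2540 (7.73%) held at least 1 match, and a match is only a match of letters.

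The other 6 positive genes had interactions of 0.67 to 0.90. Slc39a4, a zinc importer, read 2.81, 3.13 and 2.97 in the trained post pools and 2.19, 2.41 and 2.06 in the trained pre pools, while all 6 untrained pools lay between 2.06 and 2.32 (interaction 0.79 ± 0.19). Of the 12 it was the one whose untrained arm hardly moved (-0.045). Cog2, of the Golgi tethering complex, read 1.86, 1.90 and 1.69 in the trained post pools, 1.38, 1.38 and 1.36 in the trained pre pools, 1.496, 1.41 and 1.41 in the untrained post pools and 1.68, 1.65 and 1.66 in the untrained pre pools (interaction 0.67 ± 0.15). Post and pre pools were apart in both arms in Cog2, in Prcc, a nuclear protein tied to splicing (0.74), and in Eefsec, the elongation factor for selenocysteine (0.80). Agtrap, which binds an angiotensin receptor (0.85), was apart in the trained arm, and Gak, a kinase of clathrin uncoating (0.90), in the untrained arm.

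Among negative genes chosen in the same way, the 12 with the smallest p were Rhbdd2, Chrnb4, Pin4, Trav6d-4, Cdkn1c, Mir669n, Eln, Emx1, Atp6v1g1, Rgr, Nrbf2 and Gng7, with limma adjusted p of 0.606 to 0.775. Rhbdd2, a membrane protein of the rhomboid family, read 2.08, 2.34 and 2.17 in the trained post pools, 3.22, 2.63 and 2.88 in the trained pre pools, 2.57, 2.75 and 2.48 in the untrained post pools and 1.94, 2.13 and 2.15 in the untrained pre pools. The arms crossed without overlap of post and pre pools in either, and the interaction was -1.24 ± 0.22 (-1.34 in batch 1 and -1.04 in batch 2). Pin4, a prolyl isomerase, read 1.06, 1.23 and 1.51 in the trained post pools, 1.87, 1.76 and 2.16 in the trained pre pools, 1.94, 1.96 and 2.21 in the untrained post pools and 1.90, 1.56 and 1.72 in the untrained pre pools (interaction -0.97 ± 0.19). Chrnb4, a subunit of nicotinic acetylcholine receptors, read 1.56, 1.60 and 1.56 in the trained post pools, 2.23, 1.80 and 1.98 in the trained pre pools, 2.19, 1.82 and 1.99 in the untrained post pools and 1.44, 1.40 and 1.26 in the untrained pre pools (interaction -1.06 ± 0.20). For Chrnb4 all trained post and untrained pre pools lay below all trained pre and untrained post pools, while for Pin4 the untrained pre pools overlapped the trained pre pools.

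Nrbf2, a component of the lipid kinase complex of autophagy, was the most strongly expressed of the 12, at a mean of 4.66. It read 4.50, 4.48 and 3.85 in the trained post pools, 5.39, 4.93 and 4.81 in the trained pre pools, 4.74, 5.08 and 4.76 in the untrained post pools and 4.86, 4.13 and 4.38 in the untrained pre pools (interaction -1.17 ± 0.28). The trained pools were apart and the untrained ones overlapped. Atp6v1g1, a subunit of the proton pump that acidifies lysosomes, read 2.70, 3.15 and 3.70 in the trained post pools, 2.90, 3.45 and 4.06 in the trained pre pools, 3.69, 3.26 and 4.29 in the untrained post pools and 2.92, 2.54 and 3.15 in the untrained pre pools (interaction -1.17 ± 0.27, -1.002 in batch 1 and -1.51 in batch 2). In this gene the trained pools overlapped, and untrained mice carried most of the difference (0.88, against -0.29 in trained mice). Several of the remaining genes are known from other tissues and were low in blood: Emx1, a homeobox factor of the cerebral cortex, had an interaction of -0.79 at a mean of 1.97, Eln, which encodes elastin, -0.88 at 2.01, and Rgr, an opsin of the retinal pigment epithelium, -0.71 at 1.75. Cdkn1c, an imprinted inhibitor of the cell cycle, had -0.86 at 1.76, and Gng7, a G protein subunit, -0.82 at 2.82.

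The T cell receptor segment Trav6d-4 had the largest size of interaction among the 12 after Mir669n, -1.54 ± 0.31 (-1.46 in batch 1 and -1.71 in batch 2). It read 1.32, 1.43 and 1.49 in the trained post pools, 2.81, 2.34 and 3.22 in the trained pre pools, 2.18, 2.24 and 1.65 in the untrained post pools and 1.80, 2.10 and 1.67 in the untrained pre pools. The trained pre pools stood above the other 9 pools and the trained post pools below the other 9, and trained minus untrained was -0.61 after the period and 0.93 before it. Variable segments are a family of similar sequences, and how far its probes read related segments was not tested.

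Of the 25 microRNAs among the 967 genes, 19 were negative. MicroRNA features had a median level of 0.83, and of the 374 genes of any type below the median level 266 were negative, a similar share. A microRNA silences messages that pair with its seed, bases 2 to 8 of the mature strand, while the array probes read whatever RNA holds the gene's sequence, precursors included. Mature sequences were found for 21 of the 25 in RefSeq on GRCm38.p6, and those of the 2 negative microRNAs with the smallest p are printed with the seed in capitals.
miR-669n, chr3:115979905-115979924, plus strand: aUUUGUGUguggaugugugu
miR-3076-3p, chr14:30572185-30572207, plus strand: cGCACUCUggucuucccuugcag
Each seed occurred in 1 of the 1738 mature sequences of that table, so neither shared it with another microRNA there. Mir669n read 1.77, 0.87 and 1.24 in the trained post pools, 2.82, 1.79 and 1.99 in the trained pre pools, 3.22, 3.14 and 3.04 in the untrained post pools and 2.43, 2.63 and 2.18 in the untrained pre pools. Its interaction was -1.62 ± 0.36 (-1.63 in batch 1 and -1.60 in batch 2), and the arms differed mainly after the period, by -1.84, against -0.22 before it. Mir3076 read 1.34, 0.88 and 0.98 in the trained post pools, 1.09, 1.74 and 1.27 in the trained pre pools, 1.57, 1.86 and 1.74 in the untrained post pools and 1.04, 0.71 and 0.91 in the untrained pre pools (interaction -1.14 ± 0.26). Only the untrained pools were apart in Mir3076, and its mean of 1.26 is below the median level, where the size of a difference is uncertain. Mir669j, which shares the family name of Mir669n but lies on chromosome 2 and not 3, had an interaction of -0.97 ± 0.24 at a mean of 1.17.

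Small nucleolar RNAs guide the chemical modification of ribosomal and small nuclear RNAs, and 27 of their 38 features among the 967 genes were negative. This is close to the share among the genes of any type below the median level (266 of 374), and small nucleolar RNA features had a median level of 0.82. The 3 with the smallest p were Gm22595 (-0.86 ± 0.19), Gm25125 (-1.62 ± 0.36) and Gm25466 (-0.93 ± 0.23), with limma adjusted p of 0.775 each. Gm25466 read 2.60, 2.14 and 2.49 in the trained post pools, 3.58, 3.36 and 3.73 in the trained pre pools, 2.91, 3.05 and 2.62 in the untrained post pools and 3.21, 3.06 and 2.97 in the untrained pre pools. It was lower after the period over both arms (-0.68, limma adjusted p = 0.00885), and its trained pools were further apart than its untrained ones (-1.15, against -0.22). Gm25125 read 3.02, 2.24 and 2.04 in the trained post pools, 3.46, 2.96 and 3.13 in the trained pre pools, 3.31, 2.89 and 3.57 in the untrained post pools and 2.23, 2.26 and 2.65 in the untrained pre pools, with overlap in the trained arm only.

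Of 11 class II presentation genes 2 were among the 967, and of 22 B cell genes 1, all positive, against 3.53% of all features. Class II molecules of the major histocompatibility complex show peptides to helper T cells and are made by B cells and other presenting cells. H2-Aa, the alpha chain of a class II molecule, read 7.43, 6.93 and 5.86 in the trained post pools, 7.78, 7.76 and 7.17 in the trained pre pools, 5.67, 6.37 and 5.01 in the untrained post pools and 7.61, 8.25 and 7.49 in the untrained pre pools. Its interaction was 1.27 ± 0.34 (1.32 in batch 1 and 1.17 in batch 2, limma adjusted p = 0.802). Post minus pre was -0.83 in trained and -2.10 in untrained mice, and over both arms it fell by 1.46 (limma adjusted p = 0.00222). H2-DMb1, which helps to load peptides onto class II molecules, read 2.50, 3.06 and 2.57 in the trained post pools, 2.65, 3.10 and 2.42 in the trained pre pools, 1.98, 2.23 and 1.99 in the untrained post pools and 2.88, 3.33 and 2.97 in the untrained pre pools (interaction 0.98 ± 0.26). Trained pools overlapped and untrained pools were apart in both genes.

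Class II promoters are known for a Y box, an inverted CCAAT letter group bound by the factor NF-Y, which acts beside the coactivator encoded by Ciita. The promoters of these 2 genes are shown for that reason, in 150 bases before the start site from RefSeq on GRCm38.p6, 5′ to 3′ on the gene's own strand, with matches to CCAAT or its reverse complement ATTGG in capitals.
H2-Aa, chr17:34287824-34287973, minus strand: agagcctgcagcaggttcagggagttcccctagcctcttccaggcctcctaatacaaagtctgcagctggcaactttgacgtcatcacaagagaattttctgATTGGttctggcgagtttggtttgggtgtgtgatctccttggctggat
H2-DMb1, chr17:34153041-34153190, plus strand: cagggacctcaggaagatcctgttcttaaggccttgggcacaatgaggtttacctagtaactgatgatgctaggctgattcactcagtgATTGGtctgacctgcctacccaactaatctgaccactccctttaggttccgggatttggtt
Each window held 1 match, ATTGG, beginning 48 bases before the start site in H2-Aa and 61 in H2-DMb1. Of the 32851 windows of this length, 8047 (24.5%) held CCAAT or ATTGG.

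Of 11 class II presentation genes, 8 were positive and 3 negative, 3 had an unadjusted p under 0.05 and 0 passed over all genes (limma). Over all features 13523 of 27381 were positive, 5.67% had an unadjusted p under 0.05 and 3.53% were among the 967 genes. These shares hold as the background for the other lists too. This background depends on level, with a median interaction of 0.13 over features of the highest class (means from 2.65). All B cell genes (lowest mean 3.10) and platelet genes (lowest mean 2.99) lie in that class. Other blood cell lists hold genes of that class too, and their medians are to be read beside 0.13. The median interaction of the class II genes was 0.50, against -0.0039 over all features, with 0.70 in batch 1 and 0.17 in batch 2. The median was 0.24 without untrained post replicate 1 and 0.84 without untrained post replicate 2. Of 22 B cell genes, 19 were positive, 3 had an unadjusted p under 0.05 and 0 passed (limma). Their median of 0.37 was made of 0.77 in batch 1 and -0.22 in batch 2, so the batches differed in sign, and without untrained post replicate 1 it was 0.086. The transcription factor Spib was the one B cell gene alike in both batches (0.99 ± 0.41, 1.05 in batch 1 and 0.86 in batch 2). It read 4.18, 3.54 and 3.22 in the trained post pools, 4.06, 4.84 and 4.25 in the trained pre pools, 2.38, 3.44 and 2.90 in the untrained post pools and 4.58, 4.51 and 4.78 in the untrained pre pools, and over both arms it fell by 1.23 (limma adjusted p = 0.0084). Ptprc, the pan-leukocyte gene, had an interaction of 0.45 ± 0.45, with 0.64 in batch 1 and 0.089 in batch 2.

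For other leukocytes the lists were positive at the median. Among the 967 genes were 1 of 22 T cell genes, 0 of 18 of natural killer cells, 0 of 18 of monocytes and 1 of 21 of neutrophils. The share over all features was 3.53%. Leaving out 1 array moved the medians of these lists to between 0.070 (without untrained post replicate 1) and 0.42 (without trained post replicate 3) for T cells, 0.097 (without untrained pre replicate 3) and 0.38 (without untrained pre replicate 1) for natural killer cells, 0.080 (without trained post replicate 2) and 0.28 (without untrained pre replicate 1) for monocytes, and 0.067 (without trained post replicate 1) and 0.31 (without trained post replicate 3) for neutrophils. Of 22 T cell genes, 20 were positive (median 0.22, 0.32 in batch 1 and 0.16 in batch 2), and Cd6, a surface receptor of T cells, was the only T cell gene among the 967 (0.36 ± 0.16). Of 18 genes of natural killer and cytotoxic cells, 15 were positive (0.23, 0.25 in batch 1 and 0.31 in batch 2). None of these was among the 967 genes. The smallest p was that of Nkg7, of cytotoxic granules (1.01 ± 0.30, 1.29 in batch 1 and 0.45 in batch 2), followed by the chemokine Ccl5 (0.63 ± 0.22). Nkg7 read 4.98, 5.15 and 3.78 in the trained post pools, 4.89, 4.58 and 4.25 in the trained pre pools, 3.38, 4.08 and 3.16 in the untrained post pools and 4.90, 4.50 and 4.09 in the untrained pre pools, and only the untrained pools were apart. Monocyte genes (12 of 18 positive) had a median of 0.27, with 0.18 in batch 1 and 0.10 in batch 2, while Cx3cr1, a receptor of patrolling monocytes, was negative (-0.40 ± 0.27). Neutrophil genes (16 of 21 positive) had a median of 0.18, with 0.34 in batch 1 and -0.072 in batch 2, and Il1r2, the decoy receptor of interleukin 1, was alike in both batches (0.80 ± 0.34).

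Platelet genes were higher after the period in both arms at the median (0.78 in trained and 0.58 in untrained mice), and erythroid genes were at 0.30 in trained and -0.079 in untrained mice. Esam, an adhesion molecule of platelets and endothelium, read 4.22, 5.09 and 4.36 in the trained post pools, 2.69, 3.45 and 2.94 in the trained pre pools, 4.14, 3.75 and 3.84 in the untrained post pools and 3.78, 3.35 and 3.73 in the untrained pre pools. It rose by 0.91 over both arms (limma adjusted p = 0.0144), with 1.53 in trained and 0.29 in untrained mice, and the interaction was 1.24 ± 0.35 (1.20 in batch 1 and 1.30 in batch 2). The 23 platelet genes as a list had a median interaction of 0.052 (-0.0021 in batch 1 and 0.29 in batch 2), which was -0.033 after quantile normalization. Of 26 erythroid genes, 25 were positive, with a median of 0.20 (0.16 in batch 1 and 0.29 in batch 2). Their median of trained minus untrained was 0.028 after the period and -0.17 before it, so the arms differed mainly before the period. In 23 of the 26 the sign was the same in both batches, against 51.3% of all features, though genes of a list share arrays and are not independent. The same sign was kept in 6 of 11 class II genes, 9 of 22 B cell genes and 12 of 22 T cell genes. It was kept in 11 of 18 genes of natural killer cells, 11 of 18 of monocytes, 11 of 21 of neutrophils and 12 of 23 of platelets. Of the erythroid genes, 2 had an unadjusted p under 0.05 and 0 passed (limma). Among the 967 genes were 1 of the 26 erythroid and 1 of the 23 platelet genes, against 3.53% of all features. Trim58, a ubiquitin ligase of late erythroblasts, read 2.91, 2.91 and 3.18 in the trained post pools, 2.36, 2.31 and 2.35 in the trained pre pools, 3.01, 2.69 and 2.96 in the untrained post pools and 2.78, 2.64 and 2.58 in the untrained pre pools (interaction 0.45 ± 0.18). It rose over both arms by 0.44 (limma adjusted p = 0.022), and its trained pools were apart.

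**Figure D5:**
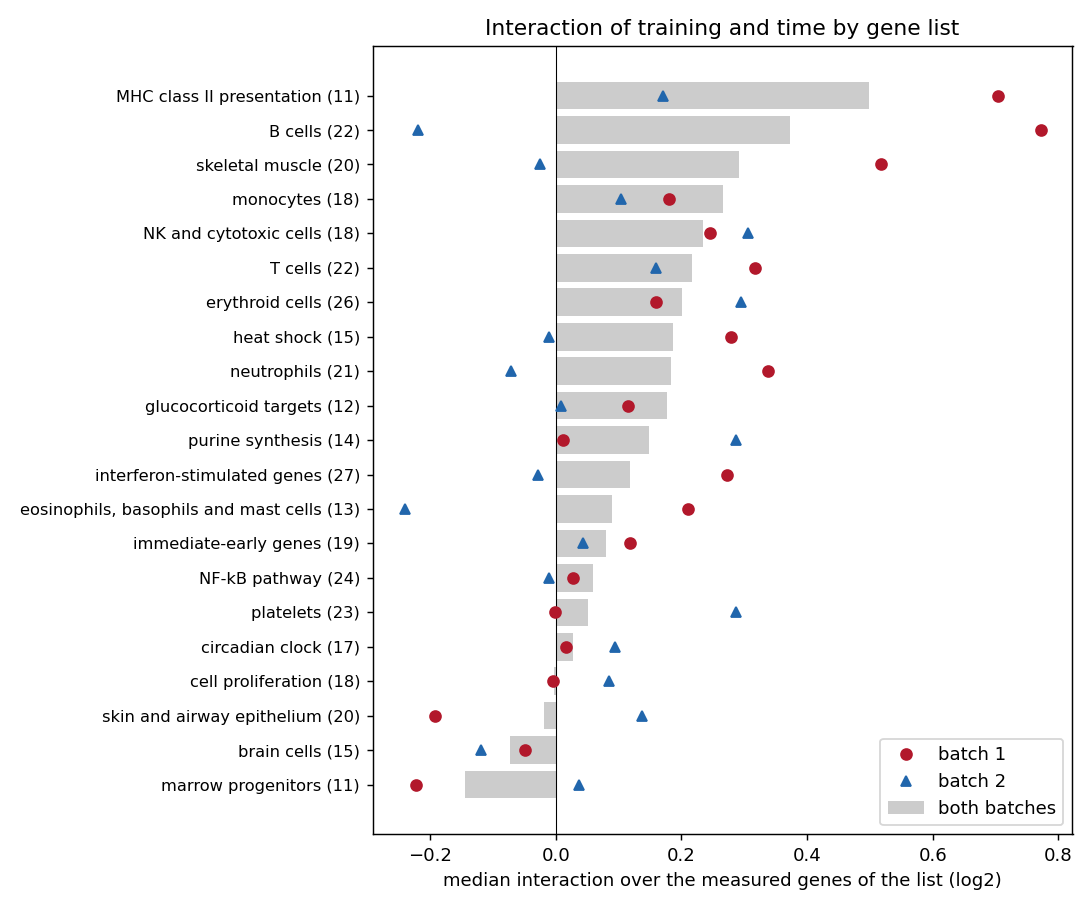
Median interaction (horizontal axis, log2) over the measured genes of 21 lists, with the number of genes in brackets, as grey bars over both batches, red circles in batch 1 and blue triangles in batch 2. Class II presentation (0.50) and B cell genes (0.37) have the highest medians, and B cells are negative in batch 2. The bars of platelets and NF-kB turn to -0.033 and -0.0096 after quantile normalization, and those of cell proliferation and of skin and airway epithelium to 0.040 and 0.024 when arrays are centred.

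Lists of tissues that collection could bring did not share 1 direction. Skeletal muscle genes had a median of 0.29 (18 of 20 positive), which was -0.25 without untrained pre replicate 1, the pool that stood apart in muscle genes. Skin and airway epithelium had -0.019 and marrow progenitors -0.15 (5 of 11 positive). Brain cell genes had -0.072 (6 of 15 positive), and Snap25, a protein of synaptic vesicle release, was the one of them alike in both batches. It read 1.25, 1.00 and 1.00 in the trained post pools, 1.79, 1.43 and 1.74 in the trained pre pools, 1.80, 1.41 and 1.76 in the untrained post pools and 1.13, 1.16 and 1.17 in the untrained pre pools (interaction -1.07 ± 0.21, limma adjusted p = 0.606). The post and pre pools were apart in both arms, and the mean over all pools, 1.39, lay below the median level of features. Eosinophil, basophil and mast cell genes had 0.090, with 0.21 in batch 1 and -0.24 in batch 2.

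Among pathways, interferon-stimulated genes (17 of 27 positive) had a median of 0.12, with 0.27 in batch 1 and -0.028 in batch 2. Ifit1 and Ifit2, which bind viral RNA or restrain its translation, were alike in both batches, at 0.71 ± 0.29 and 0.67 ± 0.30. Ifit2 read 3.79, 4.59 and 4.02 in the trained post pools, 2.79, 3.52 and 3.25 in the trained pre pools, 3.61, 3.72 and 3.55 in the untrained post pools and 3.34, 3.23 and 3.47 in the untrained pre pools, and the post pools lay above the pre pools in both arms. NF-kB pathway genes (14 of 24 positive) had 0.059, which was -0.0096 after quantile normalization, and Ikbkg, the regulatory subunit of the kinase that releases NF-kB, was alike in both batches (0.48 ± 0.20). Purine synthesis genes (10 of 14 positive) had 0.15, and Prps1, which makes the ribose donor of the pathway, was alike in both batches (1.03 ± 0.31, 0.81 in batch 1 and 1.49 in batch 2). Prps1 read 2.68, 2.31 and 2.53 in the trained post pools, 2.11, 2.87 and 1.92 in the trained pre pools, 1.73, 1.62 and 1.54 in the untrained post pools and 2.80, 2.15 and 2.42 in the untrained pre pools, and only the untrained pools were apart. The proliferation list had a median of -0.0029 (9 of 18 positive), which was 0.040 when arrays were centred, with the replication helicase subunit Mcm6 (0.43 ± 0.16) and the mitotic kinase Cdk1 (0.63 ± 0.27) alike in both batches. Heat shock genes had 0.19 (11 of 15 positive), glucocorticoid targets 0.18 (8 of 12), immediate-early genes 0.080 (13 of 19) and circadian clock genes 0.027 (10 of 17), and over these lists 0 genes passed (limma), with Hspe1 the one alike in both batches. The heat shock median was -0.0012 without trained post replicate 2 and 0.33 without trained post replicate 3, that of immediate-early genes -0.0030 and that of clock genes -0.039 without trained pre replicate 1.

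The 7 genes that the study followed were read in the same way, and none was alike in both batches with an unadjusted p under 0.05. Card6, a caspase-recruitment protein of NF-kB signalling, read 2.51, 2.41 and 1.65 in the trained post pools, 2.60, 3.22 and 2.86 in the trained pre pools, 1.28, 1.90 and 1.55 in the untrained post pools and 2.44, 2.56 and 2.79 in the untrained pre pools. It fell over both arms (-0.86, limma adjusted p = 0.0155), and its interaction was 0.33 ± 0.33 (0.47 in batch 1 and 0.035 in batch 2, limma adjusted p = 0.948). By the study, Card6 was higher in trained than in control mice after the period, on arrays and by RT-PCR. That contrast differs from the interaction. In these arrays trained minus untrained was 0.62 after the period and 0.29 before it. Impdh2, the enzyme that commits purine synthesis to guanine nucleotides, had -0.79 ± 0.75, with -0.010 in batch 1 and -2.35 in batch 2. It read 2.76, 1.63 and 0.99 in the trained post pools, 1.89, 2.39 and 1.47 in the trained pre pools, 1.94, 0.94 and 3.08 in the untrained post pools and 1.94, 0.82 and 1.21 in the untrained pre pools, and all 4 groups overlapped. Irf8, a transcription factor of B and myeloid cells, had 0.74 ± 0.27 (0.92 in batch 1 and 0.40 in batch 2, limma adjusted p = 0.85), and the untrained pools were apart. Ikbkb, a kinase of NF-kB release, had 0.53 ± 0.42, with opposite signs in the batches (1.02 in batch 1 and -0.46 in batch 2). Dnase1l2, a deoxyribonuclease, had 0.34 ± 0.21, Nfkb2 -0.025 ± 0.21 and the reference gene Ywhaz -0.011 ± 0.19, and the last 2 turned positive when arrays were centred (0.018 and 0.033).

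A pair of other contrasts of the same model use combinations of the group means that the interaction does not, though they share its residual spread. Over both arms, 880 of all features (3.21%) changed over the period, 355 higher and 525 lower (limma). The count was 484 without trained post replicate 3, 505 without trained pre replicate 3, 527 without untrained post replicate 1, and 543 and 509 without untrained pre replicates 2 and 3. Among the 967 genes, 51 (5.27%) were called, 24 lower and 10 higher among the positive ones, and 13 lower and 4 higher among the negative ones. A small residual spread helped to choose the 967 genes and enters this test too, so 5.27% is not set against 3.21%. Igkv12-46, a variable segment of the kappa light chain, fell by 1.19 (limma adjusted p = 0.00187), with -0.70 in trained and -1.69 in untrained mice. Ephx1, which opens epoxides, fell by 0.76 (limma adjusted p = 0.00849), with -0.27 in trained and -1.24 in untrained mice. Igtp, an interferon-induced GTPase, rose by 0.73 (limma adjusted p = 0.0124), with 1.04 in trained and 0.42 in untrained mice. For trained minus untrained over both times, 0 features passed (limma, smallest adjusted p = 0.843), 1374 of all features (5.02%) had an unadjusted p under 0.05, and 127 of the 967 genes (13.1%) did. These 127 were chosen in part by a small residual spread, which enters both tests, so the 2 shares are not set against each other.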

How the data were processed

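The authors scanned 12 Mouse Gene 2.0 ST arrays and deposited log2 intensities made by RMA (background correction, quantile normalization, 1 summary value per Entrez gene). The submitters' processing notes name affy 1.62.0 and R 3.6.0. Batch adjustment before deposit and the genome build of the probe sets are not given in the sources used here. Every array entered the fits, with no filter or detection call, and the number of arrays limits the precision. Symbols came from the platform table (26794 features) or RefSeq (564), and 23 features stayed unnamed.

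Groups and batches came from the labels. Group means with batch as a term were fitted in limma 3.58.1 under R 4.3.3 (lmFit, eBayes, 7 residual degrees of freedom), with two-sided p-values adjusted by Benjamini-Hochberg across the whole table. Errors are SEs of this fit over all 12 arrays (3 per group), and batch values are differences within a batch. The scripts were tested on simulated data.

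Named were the 12 genes in each direction with the smallest p (alike in both batches, with a proper symbol, at or above the median level), genes past the threshold, the 3 leading microRNAs and small nucleolar RNAs, up to 4 alike members of each of 21 lists (otherwise up to 2 by smallest p), and 7 genes of the study. Genes read as checks of the arrays, and those given as examples of change over both arms, lie outside this rule. Genes, lists and tests were chosen with earlier results of these data known. Alternatives were no batch term, a replicate block, either batch by itself, leaving out features under the median level, quantile normalization, median centring, limma's trend and array weights, other limits of the rule, and each array left out.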

Additional observations from a re-analysis of the deposited data

Results flagged for a closer look

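The interaction of training and time of Gm22576, a small nuclear RNA gene, was -1.96 (limma adjusted p = 0.0317), and it was marked because the test of the difference between the arms passed the threshold over all features. The change over the period was -1.45 in trained and 0.51 in untrained mice.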

How the results depend on the processing

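The count of 1 feature past the threshold for the interaction was 0 with a replicate block (smallest limma adjusted p = 0.0649) and 0 in batch 1 alone, and 0 to 1 when an array was left out. Without untrained post replicate 1 the 1 feature was Ubl4a (2.30, limma adjusted p = 0.0315) in place of Gm22576. Over its alternatives Gm22576 had limma adjusted p of 0.00326 to 0.221 and always the same sign. Arrays that share a replicate number did not deviate together (r over 0.1 in 2 of 18 such pairs, range -0.190 to 0.135), so the block rests on the number alone. The count of 967 genes was 487 among features at or above the median level (486 of them among the 967), 1504 with the same sign alone, 253 at an unadjusted p under 0.01, and 844 to 1127 when a batch 1 array was left out, 585 to 674 of them among the 967. It could not be computed without a batch 2 array, since that batch has 1 array per group. With the block it was 1012 (907 of them among the 967), and after quantile normalization 909 (737). Genes called over both arms numbered 484 to 886 with an array left out, and for trained minus untrained over both times 0 to 1 (Apol7e, limma adjusted p = 0.00831, without untrained post replicate 2). The share of batch 1 genes that kept their sign in batch 2 was 54.2% at an unadjusted p under 0.01. The cause of these differences was not tested, apart from the smaller number of features or stricter limit by construction.

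In batch 2 alone the interaction reversed for Cpa3 (-0.25), Krt1 (0.13), Ier2 (-0.059), Ddit4 (-0.51), Mt1 (-0.073), Ikbkb (-0.46) and Nfkb2 (0.31). It reversed after centring for Nfkb2 (0.018) and Ywhaz (0.033), and ran from -0.18 to 0.087 and from -0.13 to 0.070 when an array was left out. The median of 10 of the 21 lists took both signs over the arrays left out, and that of 11 kept its sign. Arrays per group and low levels limit these values: 374 of the 967 genes lay below the median level.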

Other observations

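The groups described here were picked after their values were seen, and they are counts and values without a test. Of 22 enzymes of glycolysis and the pentose phosphate pathway, 17 had a positive interaction (median 0.16, 0.23 in batch 1 and 0.087 in batch 2), and 4 (18.2%, against 3.53% of all features) were among the 967 genes, all positive. Their median level was 2.87, and features of the highest level class had a median interaction of 0.13, close to that of the enzymes. G6pdx, which opens the pentose phosphate pathway, read 6.25, 6.66 and 6.53 in the trained post pools, 5.70, 6.20 and 5.11 in the trained pre pools, 6.04, 6.16 and 6.07 in the untrained post pools and 6.20, 6.18 and 5.52 in the untrained pre pools. Its interaction was 0.68 ± 0.30, and the trained pools were apart. Pgd, a later enzyme of the same pathway, had 0.89 ± 0.25 (0.89 in batch 1 and 0.88 in batch 2), the glycolytic enzyme Pgk1 0.94 ± 0.38 and Hk1, the hexokinase of red cells, 0.53 ± 0.21. None passed over all genes (limma adjusted p of 0.82 to 0.881).

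Of 185 immunoglobulin variable segments, 142 were positive, with a median of 0.28 that was 0.50 in batch 1 and -0.13 in batch 2. Their median level was 3.28, and features of the highest level class had a median interaction of 0.13. Among the 967 genes were 14 of them (7.57%, against 3.53% of all features), 10 positive and 4 negative. Ighv1-7 read 5.45, 5.42 and 4.86 in the trained post pools, 6.05, 5.91 and 5.21 in the trained pre pools, 4.01, 4.55 and 3.71 in the untrained post pools and 5.47, 5.78 and 5.62 in the untrained pre pools (interaction 1.05 ± 0.26). The untrained pools were apart and the trained pools overlapped. Of 1360 olfactory and vomeronasal receptor genes, 819 were negative, with a median of -0.065 (-0.066 in batch 1 and -0.070 in batch 2). Their share among the 967 genes was 48 of 1360 (3.53%), the same as for all features, and 41 of the 48 were negative at a median level of 0.742 over the family. In the other direction from most small nucleolar RNAs among the 967 genes, Snord88c and Snord88a had 1.00 ± 0.40 and 0.75 ± 0.24. Over all small nucleolar RNA features the median interaction was -0.042.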
